A study of Solanum tuberosum with 22 samples.

Results

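Tubers of 11-15 mm were compared with tubers of 6-10 mm, the size class before them, in potato (Solanum tuberosum) plants of a growth chamber. On the arrays, which carry 32448 spots of cDNA, 9052 spots had a value on all 4 arrays of these classes, and 5425 of them (59.9%) differed in the same direction in both replicates. These 5425 spots are the subject here, 2727 of them higher and 2698 lower in the 11-15 mm tubers. Another 3266 spots differed in opposite directions in the 2 replicates and 361 did not differ in one of them. The direction alone chose the spots, so it is no finding. The rule set no size of change, but differences of opposite sign partly cancel in the mean. The sizes given below are therefore not free of the rule. Of the 3266 spots with opposite signs, 7 had a mean change of at least 2-fold, against 186 of the 5425. The values on arrays of other classes were free.

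Each array compared a sample with a pool of RNA of all in vivo stages. The 11-15 mm and the 6-10 mm tubers were measured on 2 arrays each, as were tubers of 16-25, 26-35 and 1-5 mm and stolons, the underground shoots that had not yet formed a tuber. Replicates were sets of 10 plants grown one after the other, and a class holds tubers of many plants. Microtubers formed on culture medium, sampled 2, 5, 10, 20 and 30 days after tuber induction on 2 arrays each, had a pool of their own. Neither a cultivar nor a plant age was given, and the labels describe the culture medium for the growth chamber plants as well.

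A potato tuber forms when the tip of a stolon stops elongating and swells by cell division and cell enlargement. As it grows it becomes a sink that imports sucrose, turns it into starch through sugar nucleotides, and stores protein as patatin and protease inhibitors in the vacuoles. Genes of the stolon or of dividing tissue can decline over the same period. A difference between size classes measured on a mixture of cells cannot tell a change per cell from a change in the share of each cell type.

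Values are log2 ratios to the pool, so 1 is a doubling, and the changes given are 11-15 mm minus 6-10 mm within a replicate, averaged over the replicates. Replicate 1 and replicate 2 were labelled with opposite dyes, and the values of replicate 2 were turned so that both run the same way. With this choice patatin pat1 averaged -6.79 in stolons, whose RNA was amplified, against 0.30 in 11-15 mm and -0.61 in 1-5 mm tubers. The direction is likely but not settled, since turning replicate 1 in place of replicate 2 swaps higher and lower in every in vivo comparison with the same sizes and p-values. The arrays of 11-15 mm tubers had 13445 and 13454 values and those of 6-10 mm tubers 10740 and 14209. Ratios have 2 decimals and a lowest value of 0.01, or -6.64 on the log2 scale, which 5 of the 5425 spots reached. Of the 186 spots with at least a 2-fold difference, 4 reached it and 15 had a deposited ratio under 0.1, where 2 decimals make coarse steps. The stolon value of pat1 in replicate 1 is this lowest value.

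The differences of the 2 replicates correlated at r = 0.385 over the 9052 spots (Spearman 0.366), a description over spots that share arrays. Most of the 5425 spots differed little: 5239 stayed within 2-fold, and the median size of the change was 0.32 on the log2 scale, with 95% of them under 0.88. At least 2-fold differences were found for 186 spots, 74 higher and 112 lower, between -3.02 and 1.69. The spot nearest to the 2-fold limit from below had a change of 0.999.

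No spot passed an adjusted p of 0.05 in limma (Benjamini-Hochberg over 8946 spots, 5359 of them among the 5425, replicate as a block), so 0% were called. The smallest adjusted p was 0.0693. At an unadjusted p under 0.05, 1228 spots passed (13.7%), with 579 higher (6.47%) and 649 lower (7.25%). At an adjusted p under 0.10 there were 10, of which 9 were lower. Array weights gave 13 calls at 0.05, 12 of them lower, and leaving out an array gave 13 without 6-10 mm replicate 2 and 2 without 11-15 mm replicate 2. The gene values below are therefore measured differences in both replicates that did not pass the test across all spots, and their adjusted p is given for that reason. Many clones were printed on 2 spots of the array, and over 523 such pairs listed with 1 gene the 2 changes correlated at r = 0.92. Spots of one gene can thus be prints of the same clone. Neither they nor the counts of spots below are independent measurements.

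**Figure D1:**
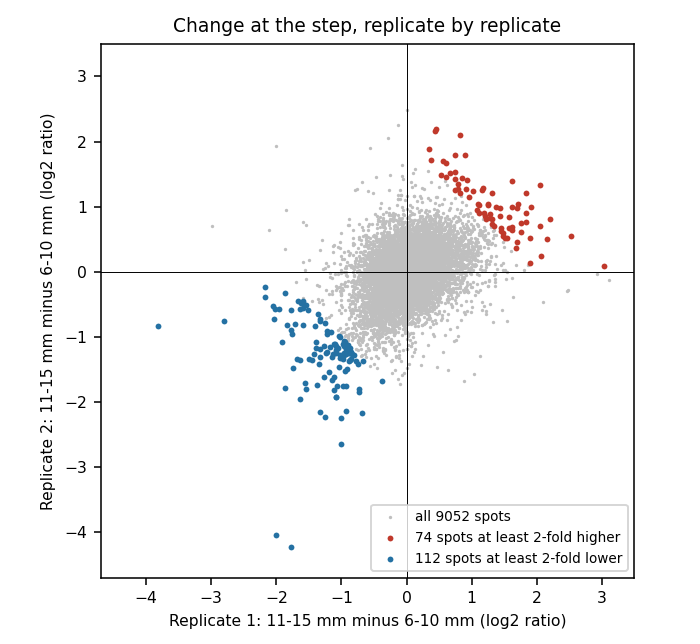
Each point is a spot with values on all 4 arrays, placed by its difference 11-15 mm minus 6-10 mm (log2 ratio) in replicate 1 (x axis) and replicate 2 (y axis). The 74 red spots were at least 2-fold higher and the 112 blue spots at least 2-fold lower in both replicates' mean, with the same sign in each. The cloud leans along the diagonal with r = 0.385, and the 2 lowest points on the y axis belong to the vacuolar processing enzyme VPE2.

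Among the named genes higher in 11-15 mm tubers were 3 inhibitors of proteases, which serve potato tubers as storage protein and defence. The Kunitz-type aspartic protease inhibitor API (LOC102604256) had 0.91 and 0.07 in the 11-15 mm tubers of replicates 1 and 2, against -0.40 and -1.13 in 6-10 mm tubers. Both 11-15 mm values lay above both 6-10 mm values, with a change of 1.25 ± 0.28 (SE of the limma fit, adjusted p = 0.153), or 2.39-fold. Proteinase inhibitor PIN-II had 1.81 and 0.97 in 11-15 mm tubers, against -0.03 and -0.24 in 6-10 mm tubers. Its change of 1.52 ± 0.44 (limma adjusted p = 0.206) was the largest of the named genes that were higher, and all 5 of its spots were higher, by 0.55 to 1.52. Kunitz inhibitor KTI-C had 1.80 and 0.07 in 11-15 mm tubers, against 0.57 and -0.42 in 6-10 mm tubers, so its groups overlapped. All 5 of its spots were higher, by 0.62 to 0.86. Patatin pat1, the main storage protein, had a change of 0.29 ± 0.21 (limma adjusted p = 0.599), with 0.73 and -0.14 in 11-15 mm tubers against 0.15 and -0.14 in 6-10 mm tubers, and no difference in replicate 2, which keeps its spot out of the 5425. The 4 measured genes of this group had mean changes between 0.29 and 1.24, with a median of 0.90 and 0 called, beside a median of 0 over the 344 genes tested.

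Of 8 starch genes measured, 6 had a higher and 2 a lower mean, between -0.27 and 0.63, and 0 were called. UGPase, which makes and breaks UDP-glucose, had 1.42 and 0.86 in 11-15 mm tubers, against 0.48 and 0.22 in 6-10 mm tubers, and its 4 spots were all higher by 0.43 to 0.87. The starch synthase genes GBSS-II and GBSS had changes of 0.60 ± 0.21 and 0.49 ± 0.19, and dpeP, a glucan-disproportionating enzyme, 0.39 ± 0.17 (limma adjusted p between 0.261 and 0.356). For GBSS this is the spot with the largest change of 4, which ranged from 0.16 to 0.49 with a mean of 0.31. Only 2 of these 4 spots had the same sign in both replicates. The sucrose synthase SS16, which splits imported sucrose, had 1.70 and 1.12 in 11-15 mm tubers against 0.48 and 0.30 in 6-10 mm tubers on 1 spot. Its 2 other spots were lower, by 0.50 and 0.43, and the mean of its 3 spots was 0.03, so the spots of this gene disagree. Acid invertase PAIN-1, which cleaves sucrose in the vacuole, had -0.45 and -0.48 in 11-15 mm tubers, against 0.34 and 0.01 in 6-10 mm tubers. Both values of PAIN-1 in 11-15 mm tubers were below both in 6-10 mm tubers, with a change of -0.65 ± 0.22 (limma adjusted p = 0.257).

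CYP74D2, a divinyl ether synthase that makes oxylipins from lipoxygenase products, had 1.40 and 1.25 in 11-15 mm tubers against -0.22 and 0.25 in 6-10 mm tubers. Its change was 1.31 ± 0.40 (limma adjusted p = 0.224), and its second spot was also higher, by 0.97. HPL, a hydroperoxide lyase that also makes oxylipins, had a change of 0.65 ± 0.29. The alcohol dehydrogenase ADH1, which forms ethanol in fermentation, had 0.67 and 1.40 in 11-15 mm tubers, against -0.07 and 0.14 in 6-10 mm tubers, and a change of 1.00 ± 0.30 (limma adjusted p = 0.213). Other glycolytic genes lay close to 0: GAPDH and PGAM had gene means of 0.10 and -0.08 over 16 and 4 spots. DHAR2, a dehydroascorbate reductase, had 0.64 and 0.58 in 11-15 mm tubers, against 0.07 and -0.06 in 6-10 mm tubers, a change of 0.60 ± 0.16. Its other spot had differences of opposite sign, -0.18 and 0.29, and a change of 0.05. PEST2, a pectin methylesterase of the cell wall, and HXKRP1, a hexokinase-related protein, had changes of 0.91 ± 0.27 and 0.65 ± 0.19, nearly equal in the 2 replicates but with overlapping groups. EI1 and EI2 complete the 12 genes, with 0.64 ± 0.19 and 0.65 ± 0.21. The 12 changes lay between 0.60 and 1.52 with limma adjusted p between 0.153 and 0.237, and the groups did not overlap for 8 of the 12. Over the 8946 spots tested, the groups did not overlap and were higher in 7.58%; the 12 genes were chosen by their p, so the count is a description.

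**Figure D2:**
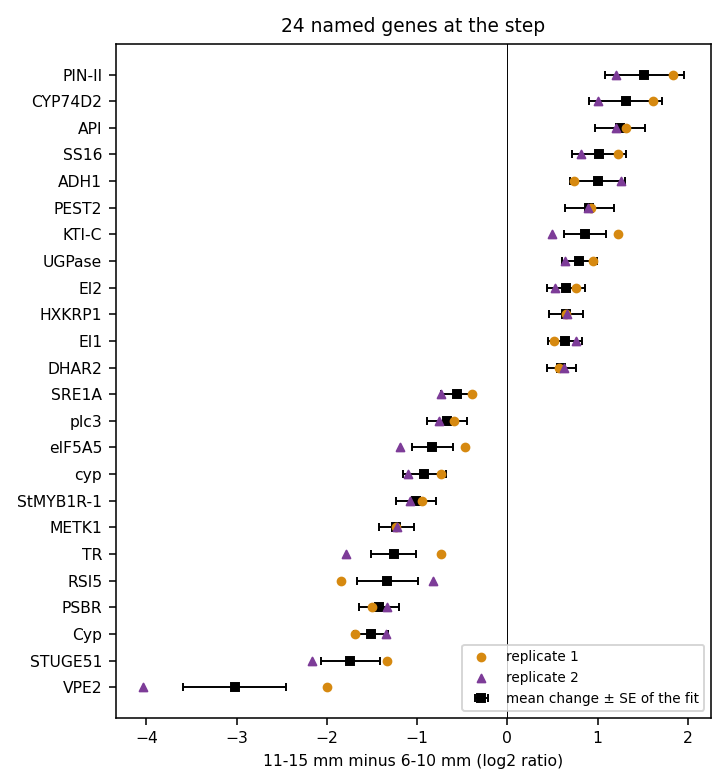
Rows are the 24 named genes, the x axis is the difference 11-15 mm minus 6-10 mm (log2 ratio). Circles and triangles are replicates 1 and 2, squares the mean change with the SE of the limma fit. The replicates of METK1, HXKRP1 and PEST2 nearly coincide, and those of VPE2 lie at -2.00 and -4.04.

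The largest difference of the 5425 spots belonged to VPE2, a vacuolar processing enzyme, a cysteine protease that cleaves proteins at asparagine residues in the vacuole. It had -2.18 and -4.69 in 11-15 mm tubers, against -0.18 and -0.64 in 6-10 mm tubers. Both values in 11-15 mm tubers lay below both in 6-10 mm tubers, with a change of -3.02 ± 0.57 (limma adjusted p = 0.116), 8.13-fold lower, and its 2 spots gave -3.02 and -3.00. STUGE51, a UDP-glucose epimerase that interconverts UDP-glucose and UDP-galactose, had -1.03 and -3.58 in 11-15 mm tubers, against 0.30 and -1.42 in 6-10 mm tubers. Its change was -1.74 ± 0.33 (limma adjusted p = 0.116), on 1 spot. Values of replicate 2 lay below those of replicate 1 in both classes for all 12 lower genes (plant set and dye cannot be told apart here), so the classes overlap across replicates while the difference within each replicate has the same sign; among the 12 genes the groups did not overlap for VPE2 and RSI5 alone, 2 of 12, beside 4.74% of all spots tested that were lower with no overlap.

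METK1, an S-adenosylmethionine synthase that supplies the methyl donor and the precursor of polyamines and ethylene, had -0.51 and -2.55 in 11-15 mm tubers, against 0.71 and -1.33 in 6-10 mm tubers. The differences in the replicates, -1.23 and -1.22, were almost equal, and all 15 spots of the gene were lower, by 0.52 to 1.23 on the log2 scale. Fitted as a mean of its spots, METK1 had a change of -0.96 (limma adjusted p = 0.0654 over 344 gene means, the smallest of that fit, which PSBR, STUGE51, VPE2, TR and StMYB1R-1 share). Other genes of the pathway had smaller changes of both signs. SpdSy, spermidine synthase, had -0.38 ± 0.18, ARD, an acireductone dioxygenase of methionine recycling, 0.36 ± 0.19, and SAMDC, which commits S-adenosylmethionine to polyamines, a mean of 0.07 over 13 spots. The gene mean of METK2, another S-adenosylmethionine synthase, was higher in 11-15 mm tubers, by no more than 0.31. METK1 thus does not stand for both synthase genes.

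PSBR, a subunit of photosystem II at its oxygen-evolving side, had -1.78 and -3.83 in 11-15 mm tubers, against -0.28 and -2.49 in 6-10 mm tubers. Its change was -1.42 ± 0.22 (limma adjusted p = 0.0896), and all 8 of its spots were lower, by 0.74 to 1.42 on the log2 scale. MSP-II and OEE2, which encode extrinsic proteins of the same complex, had changes of -0.97 ± 0.39 and -0.65 ± 0.48 (limma adjusted p = 0.321 and 0.596). The second spot of OEE2 differed in sign between the replicates, -1.20 and 0.08. These are 3 of the 4 genes of the list on the array, and the mean of each was lower, with a median of -0.86. The 3 genes also mark green tissue. How much green tissue the samples held was not tested.

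The other genes of the lower group have varied roles. Cyp (LOC102586427) had the smallest adjusted p of the named genes, with -0.36 and -3.00 in 11-15 mm tubers against 1.33 and -1.66 in 6-10 mm tubers and a change of -1.51 ± 0.19 (limma adjusted p = 0.0734). That is 1 of its 12 spots; the 12 ranged from -1.51 to 0.13 with a mean of -0.26. A cDNA spot can bind transcripts of related genes, so spots listed with one gene need not measure the same transcript. TR, a tropinone reductase of alkaloid metabolism, had a change of -1.26 ± 0.25, with 0.97 and -1.06 in 11-15 mm tubers against 1.70 and 0.74 in 6-10 mm tubers. StMYB1R-1, a MYB-related transcription factor, had -1.01 ± 0.22, and both of its spots gave -1.01. The translation factor eIF5A5 had -0.83 ± 0.23 on its best spot and a gene mean of -0.74. Its relatives eIF5A4, EIF5A3 and eIF5A1 had gene means of -0.05, 0.08 and 0.49. The 6 spots of eIF5A4 ranged from -0.44 to 0.30, so they disagree and their mean hides lower spots. The phospholipase C gene plc3 had -0.67 ± 0.22 on one spot and -0.64 on the other. RSI5, cyp and SRE1A had -1.33, -0.92 and -0.56, and all 7 spots of cyp and all 6 of SRE1A were lower. Over the 12 genes the limma adjusted p lay between 0.0734 and 0.235.

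Across 20 gene lists, none held a gene past the threshold (limma on 344 gene means, 0 called, smallest adjusted p 0.0654, 72 at an unadjusted p under 0.05). The means of all 344 genes split nearly evenly, 171 higher and 173 lower. Lists near that background were S-adenosylmethionine and polyamines (3 higher and 2 lower of 5, median 0.07), mitochondrial respiration and import (6 and 3 of 9, median 0.02), amino acid metabolism (3 and 2 of 5, median 0.09) and eIF5A (2 and 2 of 4, median 0.02). Regulators of hormones and tuberization had small values: GA2OX1, a gibberellin-inactivating oxidase, had 0.54 ± 0.39, and BEL5, a homeodomain factor that promotes tuberization, 0.17 ± 0.20. Signalling kinases and phospholipases had a median of 0.12 with 8 of 9 means higher. Transcription factors had a median of -0.58, with 3 of 4 means lower. STWRKY8, a WRKY factor, had -0.79 ± 0.29, MADS16 had -0.32 ± 0.26 and PBF-2, of the Whirly family, 0.46 ± 0.19. The other spot of PBF-2 differed in sign between the replicates, -0.36 and 0.26, with a change of -0.05. Glutamine synthetase gln, which assimilates ammonium, had -0.61 ± 0.20 on 1 spot. Catalase CAT1 differed in sign between the replicates, 0.11 and -1.24, as did the best spots of IVD, StWIPK, Lea, DHAR and eIF5A1, and these spots are not among the 5425.

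The arrays of the larger and the smallest tubers took no part in choosing the 5425 spots and offer a separate measurement of them. Tubers of 16-25 and 26-35 mm, averaged, were compared with tubers of 1-5 mm on those 6 arrays, which share plant sets and the reference pool with the 4 of the step. In limma with the replicate as a block, 7823 of the 9052 spots had all values, of which 682 were called higher (8.72%) and 809 lower (10.3%). Of the 74 spots at least 2-fold higher in 11-15 mm than in 6-10 mm tubers, 58 had values there, all 58 were higher and 51 were called higher (87.9%), with a median change of 2.03. Of the 112 spots at least 2-fold lower, 94 had values, and 73 were called lower (77.7%) and 5 higher, with a median of -1.24.

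The share called was smaller for smaller changes. Of spots with a change between 0.5 and 1, 248 of 467 were called higher (53.1%), and of those between -1 and -0.5, 240 of 471 were called lower (51%). Under 0.5 in size the shares were 11.4% and 16.6%. Spots whose replicates disagreed in sign were called higher in 4.43% and lower in 5.67%. Over the 7823 spots the change at the step and the change on the other arrays correlated at r = 0.64 (Spearman 0.63), again across spots that share arrays. These calls need the replicate block: with no block the same comparison called 0 spots in limma, with 474 at an unadjusted p under 0.05. With the block, 1661 of all 8855 spots with values on the 6 arrays were called, and 1063 without 16-25 mm replicate 2 or 1087 without 16-25 mm replicate 1. The turned values of the 2 replicates correlated at only 0.36 in 11-15 mm and 0.39 in 6-10 mm tubers, and those of the 2 classes at 0.93 and 0.91 within a replicate.

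**Figure D3:**
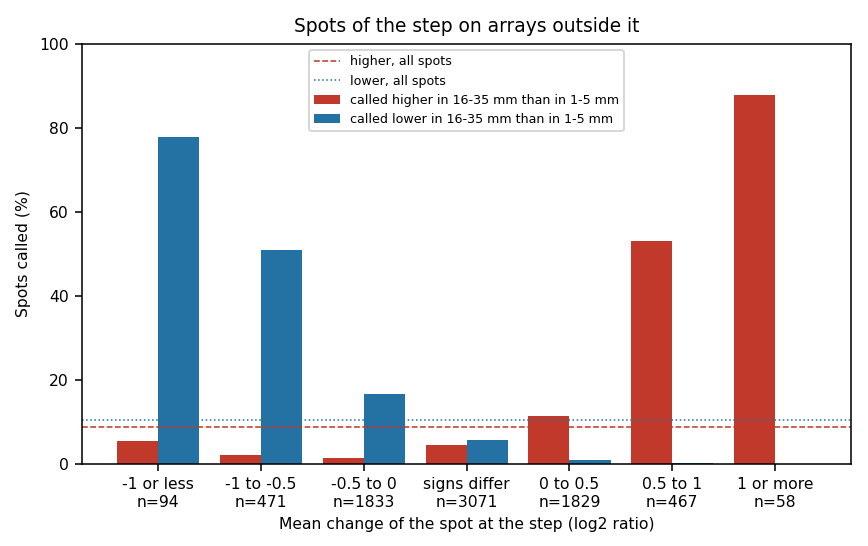
Bars give the percent of spots called higher (red) or lower (blue) in 16-35 mm than in 1-5 mm tubers, by the spot's change at the step from 6-10 to 11-15 mm (x axis, log2 ratio, with the number of spots). Dashed and dotted lines are the shares over all spots, 8.72% and 10.3%. The share in the matching direction reaches 87.9% and 77.7% at the 2 ends.

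Among the 12 named genes that were higher, 10 had values on these arrays and 9 were called higher, and among the 12 that were lower, 10 of 11 were called lower. Over all spots with values the shares were 8.72% higher and 10.3% lower. The named genes were chosen by a p whose spread drew on these arrays too, so their counts are a description and no separate check. API was higher by 6.12 (limma adjusted p = 2.44e-05), CYP74D2 by 2.45 (0.00175), PIN-II by 2.33 (0.00158) and ADH1 by 1.89 (0.00111). VPE2 differed by -4.15 (limma adjusted p = 0.000327), STUGE51 by -2.80 (0.00045), Cyp by -2.28 (0.000235), PSBR by -1.44 (0.00244) and METK1 by -0.86 (0.0196). DHAR2 (0.36, limma adjusted p = 0.174) and plc3 (-0.39, 0.162) did not pass. Of the genes listed with PSBR, MSP-II (-1.09, limma adjusted p = 0.0582) and OEE2 (-0.27, 0.723) did not pass either.

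The shape over the size classes differed between genes. In order of size from 1-5 to 26-35 mm, VPE2 averaged 0.59, -0.41, -3.44, -3.33 and -3.78, so its mean was low from 11-15 mm onwards. PIN-II had -1.03, -0.13, 1.39, 1.45 and 1.14 in the same classes, with its high mean also first reached at 11-15 mm. API had -4.14, -0.76, 0.49, 1.42 and 2.53, and its larger change was the one before, 3.38 for 6-10 mm over 1-5 mm (limma adjusted p = 0.00354). CYP74D2 had -0.19, 0.02, 1.33, 1.79 and 2.72, a mean higher in each class than in the one before. PSBR had -1.20, -1.39, -2.81, -2.28 and -3.00, and METK1 -0.19, -0.31, -1.53, -0.88 and -1.23, with nearly equal means in the first 2 classes and lower ones from 11-15 mm onwards. Of the neighbouring class means of these genes, only those of API in 6-10 and 1-5 mm tubers were called different.

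**Figure D4:**
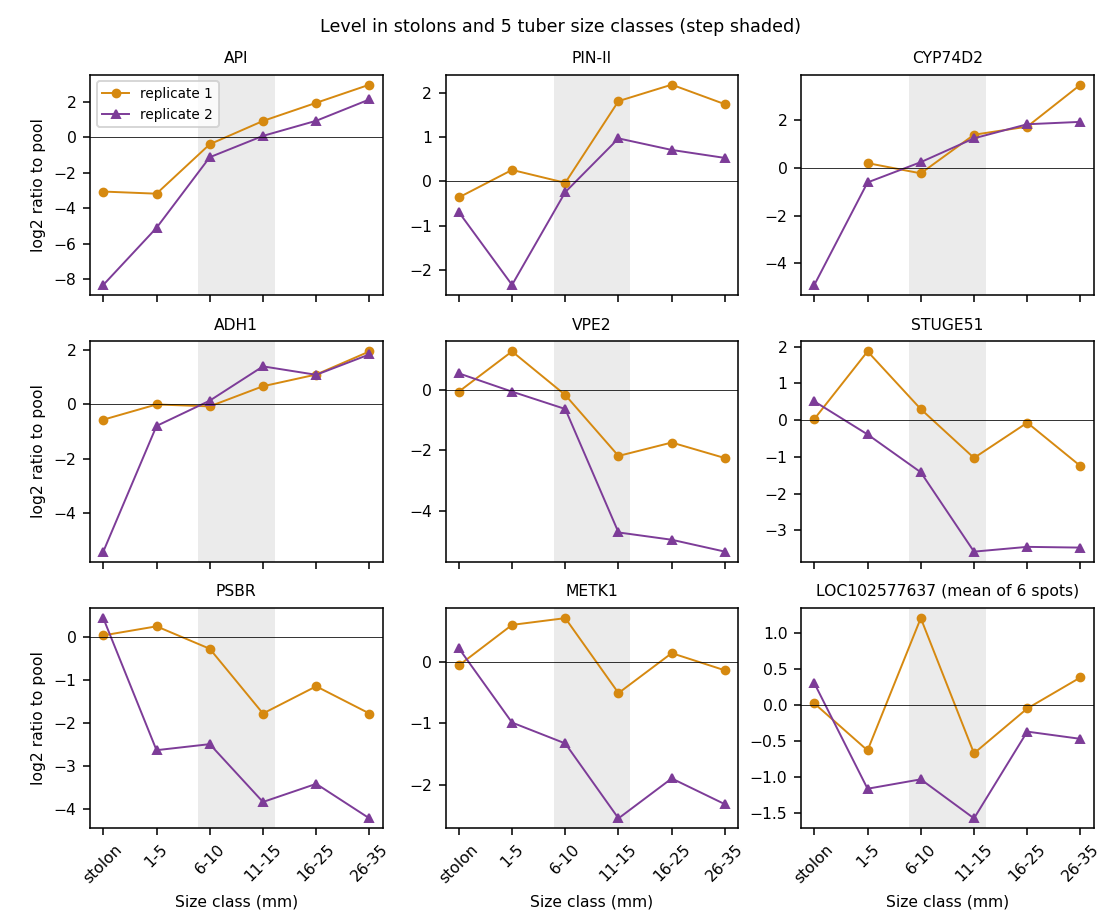
Each panel is a gene, with the size class on the x axis and the log2 ratio to the pool on the y axis; circles and triangles are replicates 1 and 2 and the shaded band holds 6-10 and 11-15 mm. VPE2 has most of its difference inside the band and API before it, and LOC102577637 turns back up after it.

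Judged by correlation, the replicates were most alike at this size step. Their differences correlated at 0.385 here, at 0.268 for 6-10 over 1-5 mm, 0.041 for 16-25 over 11-15 mm and 0.154 for 26-35 over 16-25 mm. The unadjusted limma test passed 8.48%, 3.57% and 5.04% of spots at those steps, against 13.7% at 11-15 over 6-10 mm. Spots with at least a 2-fold change and the same sign numbered 168 higher and 43 lower at 6-10 over 1-5 mm. At 11-15 over 6-10 mm they numbered 74 and 112. Only 6-10 over 1-5 mm gave calls at an adjusted p under 0.05, 43 of 9054 spots, 42 of them higher; its r and share are below those of 11-15 over 6-10 mm, and the difference between the steps was not tested there because they share arrays. A test of the step itself against the late step 26-35 over 16-25 mm, which shares no array with it, called 0 of 7973 spots (0% in limma, smallest adjusted p 0.147, 615 at an unadjusted p under 0.05). Of the named genes, API differed between these steps by 0.14 ± 0.39 (limma adjusted p = 0.949), with changes of 1.25 and 1.11. Leaving out 1 array gave 0 to 3 calls, 3 without 26-35 mm replicate 2.

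Microtubers gave another picture. After 20 and 30 days in culture against 2 and 5 days, limma called 29.4% of the 8117 spots with values in both systems higher and 30.8% lower. Of the spots at least 2-fold higher in 11-15 mm tubers, 19 of 55 were called higher (34.5%) and 23 lower (41.8%). Of those at least 2-fold lower, 57 of 92 were called higher (62%) and 18 lower (19.6%). Of the 12 named genes that were higher in 11-15 mm tubers, 8 had values in culture and 5 were called lower and 1 higher; of the 12 that were lower, all had values and 10 were called higher and 0 lower. ADH1 differed by -1.85 in the later microtubers (limma adjusted p = 8.59e-06), PIN-II by -2.30 (0.000293) and PEST2 by -1.68 (2.34e-06), while METK1 differed by 1.73 (5.09e-06) and VPE2 by 1.15 (6.27e-06). Of the genes higher in 11-15 mm tubers, the 1 called higher in later microtubers was CYP74D2 (0.73, limma adjusted p = 0.000322). The relation between the systems turns round if the in vivo direction does. Microtuber values were used as deposited and fitted with no replicate block. Their direction was not tested, and the relation would also turn round if they ran the other way.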

How the data were processed

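Log2 ratios of 2-colour spotted arrays were used as deposited, with a lowest ratio of 0.01 and 2 decimals in the ratio. Of the authors' tools, limma is named by the submitters' processing notes, without a version. Background correction, spot filters and scanner settings are not given there. Array medians lay between -0.058 and 0.029, so no further scaling was applied.

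In vivo values of replicate 2 were multiplied by -1, because as deposited the replicates correlated at -0.36 (11-15 mm) and -0.39 (6-10 mm). Per the labels the replicate number marks plant sets grown in sequence, and it also marks the sample's dye. It therefore pairs samples, and the deviations of the 2 classes from their means correlate at 0.92 over spots. It entered as a block.

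limma 3.58.1 in R 4.3.3 was fitted over the 10 tuber arrays (size class and block) for spots with values on all 4 arrays of the step and on at least 8 of the 10. Stolons were left out because their RNA was amplified. The comparison of 16-35 with 1-5 mm tubers used 6 arrays with complete values. The microtuber comparison used the 10 culture arrays as deposited, with complete values, the day of culture and no block. A spot was called at an adjusted p under 0.05 (Benjamini-Hochberg). The fits were tested on simulated data. The alternatives varied the block, arrays, scaling, weights, moderation and filters.

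Among the spots 1630 have 1 gene, 180 have several and 30638 have none in the platform annotation. All 430 genes matched the RefSeq gene table (SolTub_3.0), and 147 genes with a readable name were tested. A gene mean is the mean over all tested spots of the gene, each centred on the 4 arrays of the step. Each of the 12 genes each way was represented by its spot of smallest p with one sign in both replicates. A gene of a list was represented by its spot of smallest p, whatever the signs. The 12 genes each way with the smallest p are named, as are up to 4 genes of each of 20 lists. Members, lists and the fit were chosen with earlier results of these data known. Having 2 arrays per class limits precision.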

Additional observations from a re-analysis of the deposited data

How the results depend on the processing

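The count of 0 spots called for 11-15 mm against 6-10 mm was also 0 with no replicate block (39 at an unadjusted p under 0.05), with stolons added, with the 4 arrays alone, with median-centred and with quantile-normalized arrays, and under both filters on missing values. It was 13 with array weights (1 higher, 12 lower, among them Cyp, PSBR and METK1 with limma adjusted p of 0.0329, 0.0341 and 0.038) and 1 with robust moderation. An adjusted p under 0.10 gave 10 and an unadjusted p under 0.05 gave 1228. Leaving out 1 array gave 0 to 13 calls, 13 without 6-10 mm replicate 2 and 2 without 11-15 mm replicate 2. For 16-35 mm against 1-5 mm, with no replicate block 0 spots were called, and 0 of the 2-fold higher and 0 of the 2-fold lower spots among them, and leaving out an array gave 1063 to 1328. The difference from the late step gave 0 to 3, and 6-10 over 1-5 mm gave 0 with no replicate block. Of 1230 values of 73 named spots over 17 settings, 1217 kept their sign and side of the threshold, 3 passed it and 10 changed sign. None of the 73 passed in the main fit, so keeping the side means staying uncalled. Removing the block, adding stolons, using the 4 arrays alone, robust moderation and the filters leave the change of a spot as it was. Its sign could not turn under those settings, so the count of 1217 says little about stability. The mean over all tested spots of the gene had the other sign for FLS (-0.09). The mean over those spots with values on all 10 tuber arrays, a choice made after the data were seen, leaves out the named spots of SS16 and StMPK1 and had the other sign for both (-0.46 and -0.10). Leaving out 1 array gave -0.01 to 0.22 for EIF5A3, -0.05 to 0.70 for StWIPK, -0.22 to 1.00 for IVD, -0.58 to 0.77 for Lea, -0.60 to 0.07 for DHAR, -0.03 to 0.89 for CCoAMT and -0.03 to 1.21 for SGA. The cause of each was not tested. Spot signals over background are not in the files used here, so how dim each spot was is unknown.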

Other observations

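Of the 186 spots with at least a 2-fold difference, 54 are listed with 1 gene, 18 higher from 9 genes and 36 lower from 14 genes, and 132 have no single gene. The largest higher change, 1.69, was on a spot with no gene, which differed by 2.04 and 1.34 in the replicates (limma adjusted p = 0.0734). The following gene was singled out after its values were seen. The 5 spots that were at least 2-fold lower in 11-15 mm tubers but called higher in 16-35 mm than in 1-5 mm tubers all belong to LOC102577637, which has no readable name in the gene table. All 6 of its spots were lower at the step, by 1.03 to 1.38 on the log2 scale (limma adjusted p between 0.195 and 0.272). On the other arrays they were higher by 0.64 to 0.92, with 5 of 6 called (limma adjusted p between 0.0148 and 0.0521). Averaged over the spots, the 11-15 mm tubers had -0.67 and -1.57, against 1.20 and -1.03 in 6-10 mm tubers, while 1-5 mm tubers had -0.63 and -1.16 and 26-35 mm tubers 0.38 and -0.47. The 6-10 mm value of replicate 1 is the highest of the 12 in vivo arrays, whereas that of replicate 2 lies near the 1-5 mm value of its set.

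LOC102587499, also without a readable name, had 4 of its 20 spots at least 2-fold higher at the step, by 1.03 to 1.46, and all 4 were called higher on the other arrays, by 1.58 to 2.06. LOC102577567 had 3 of its 6 spots lower by 1.02 to 1.03, and the same 3 were called lower there, by 1.09 to 1.28 on the log2 scale.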
